A study of Mus musculus with 6 samples.

Results

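The chemokine ligand genes that T cells can transcribe described here, Ccl1, Ccl3, Ccl4, Ccl5, Ccl17, Ccl22, Xcl1 and Cxcl10, were followed on 6 arrays of mouse CD4+ T cells. A probe set was taken when the platform annotation gave it exactly 1 gene symbol and that symbol was one of the 8 genes. This gave 8 probe sets, 1 for each gene, among 45101 on the array and 18193 genes with such a probe set. All 8 passed the filter on low signals that left 29531 probe sets for testing.

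The cells came from spleen, peripheral lymph nodes and mesenteric lymph nodes and were cultured in vitro before RNA was taken. The arrays formed 3 groups of 2: RA, Ro and Control. The series title names retinoic acid, which the RA group is read as here, and the labels do not expand Ro (1 array title spells it RO). Doses, mouse strain, age and any pooling of animals are not stated. A treatment protocol is given for Control replicate 2 alone: 5 days with the cytokines IL-2, TGF-b1, IL-6, IL-1b, IL-23, IL-21 and TNF-a, plus blocking antibodies against IL-4 and IFN-gamma. Whether the other 5 cultures received the same mixture is not stated. The labels do not tell whether a group's 2 arrays represent independent cultures or mice. The p-values below therefore reflect array-to-array spread alone, and that spread may be technical.

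Chemokines are small secreted proteins that draw cells carrying matching receptors along a gradient. Activated T cells release several of them and so decide which cells gather around them: Ccl3, Ccl4 and Ccl5 call monocytes and effector T cells, Xcl1 calls cross-presenting dendritic cells, and Cxcl10 calls Th1 cells. Ccl17 and Ccl22, made mostly by dendritic cells and macrophages, and Ccl1 attract cells with receptors typical of Th2, regulatory and skin-homing T cells. Retinoic acid, a vitamin A derivative, acts through nuclear receptors and is known in T cells for inducing gut homing receptors.

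Control replicate 2 stood apart from the other 5 arrays. Its signals correlated with theirs at 0.868 to 0.878 over the log2 values, against 0.948 to 0.970 among the 5. Xist, transcribed from the inactive X chromosome of females, had signals of 3.48 and 0.364 in RA, 0.479 and 0.838 in Ro, and 241 and 1145 in Control. Eif2s3y, a Y-linked gene, had 857 and 747 in RA, 967 and 809 in Ro, and 855 and 0.972 in Control. Control replicate 2 thus carried Xist without the Y-linked transcript, and Control replicate 1 carried both. The T cell label was borne out by Cd3d, a chain of the T cell receptor complex, at 6059 to 7512 on all 6 arrays. Of 7 T cell markers tested, Cd3d and Cd3g were highest on Control replicate 2 once arrays were scaled to the same median. The other 5 (Cd3e, Cd4, Cd5, Cd28 and Zap70) were lowest there, against 29% of tested probe sets. Cd4 had 1308 and 1141 in RA, 1387 and 1791 in Ro, and 1476 and 463 in Control.

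Signals are Affymetrix MAS5 intensities in arbitrary units on a linear scale, given here as deposited. For tests each array was scaled to the same median, a constant was added and log2 was taken, so a log2 difference understates the change of a dim gene. With 2 arrays a group the number of arrays limits the precision, and the smallest 2-sided exact permutation p that 2 against 2 allows is 0.333. Groups were therefore compared with limma over all tested probe sets, with Benjamini-Hochberg adjustment and a threshold of 0.05. In bulk RNA, fewer cells of a type and less RNA per cell cannot be told apart.

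The promoters of the ligands that were lower on both RA arrays than on both Ro arrays are shown for the elements through which such genes are known to be switched on. Of those 4 genes, Cxcl10, Ccl1 and Xcl1 have an entry in the RefSeq table for GRCm38.p6. Each line gives the 250 bases before the annotated start, 5′ to 3′ on the strand of the gene, at chr5:92348890-92349139 (minus strand) for Cxcl10, chr11:82179813-82180062 (minus) for Ccl1 and chr1:164935523-164935772 (minus) for Xcl1. Capitals mark the interferon response core GAAANNGAA and the NF-kB consensus, searched on both strands.
Cxcl10: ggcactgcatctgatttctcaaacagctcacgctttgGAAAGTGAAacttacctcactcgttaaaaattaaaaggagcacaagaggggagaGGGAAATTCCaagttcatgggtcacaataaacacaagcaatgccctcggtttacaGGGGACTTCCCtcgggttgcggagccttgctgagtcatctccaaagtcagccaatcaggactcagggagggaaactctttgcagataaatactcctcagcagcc
Ccl1: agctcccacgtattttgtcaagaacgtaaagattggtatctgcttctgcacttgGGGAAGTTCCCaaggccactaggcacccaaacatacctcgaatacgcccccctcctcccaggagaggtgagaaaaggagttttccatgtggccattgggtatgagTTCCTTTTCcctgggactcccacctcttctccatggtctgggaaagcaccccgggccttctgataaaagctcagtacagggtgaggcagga
Xcl1: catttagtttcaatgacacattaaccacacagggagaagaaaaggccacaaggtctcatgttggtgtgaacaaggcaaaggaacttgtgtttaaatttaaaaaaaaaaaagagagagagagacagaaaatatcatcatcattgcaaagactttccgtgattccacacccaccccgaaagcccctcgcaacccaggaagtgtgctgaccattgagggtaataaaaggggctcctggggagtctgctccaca
The Cxcl10 promoter held 1 interferon response core, 213 to 205 bases before the start, and NF-kB matches at 159 to 150 and, overlapping each other, at 104 to 94. Ccl1 held 1 core on the opposite strand, 91 to 83 bases before the start, and overlapping NF-kB matches at 196 to 186. Neither pattern was found in these letters of Xcl1.

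Over the 300-base windows from 250 before to 50 after the start, 6 of the 8 ligand genes had an entry. The interferon response core was in 3 of the 6 (Ccl3, Cxcl10 and Ccl1), against 8.56% of 32851 promoters in the table. The NF-kB consensus was in 2 of the 6 (Cxcl10 and Ccl1), against 8.46% of promoters. The NFAT core GGAAAA was in 2 of the 6 (Ccl3 and Ccl1), against 23.4% of promoters, and in Ccl1 1 of its matches, at 87 to 82, overlapped the interferon response core. These matches describe letters and say nothing of binding in these cells.

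The Ccl17 and Ccl22 promoters are shown as a pair because the signals of both genes moved together across the arrays. The genes lie on chromosome 8 with 1 coding gene, Cx3cl1, between them. The lines give the 250 bases before the start at chr8:94810203-94810452 (plus strand) for Ccl17 and chr8:94745434-94745683 (plus) for Ccl22. None of the 3 motifs was found in either.
Ccl17: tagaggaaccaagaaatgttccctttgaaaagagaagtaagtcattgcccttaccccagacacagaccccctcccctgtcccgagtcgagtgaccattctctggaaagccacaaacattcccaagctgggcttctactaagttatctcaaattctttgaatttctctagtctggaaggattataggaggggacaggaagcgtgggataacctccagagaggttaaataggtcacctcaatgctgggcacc
Ccl22: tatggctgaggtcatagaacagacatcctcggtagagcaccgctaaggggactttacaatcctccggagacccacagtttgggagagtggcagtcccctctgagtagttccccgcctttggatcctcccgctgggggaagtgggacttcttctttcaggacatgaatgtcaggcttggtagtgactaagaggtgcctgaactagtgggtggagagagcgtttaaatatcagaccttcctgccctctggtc

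Of the 8 ligands, 7 had lower average log2 values in RA than in Ro, and Ccl17 was the exception. The median difference of the 8 was -0.65 log2 units, against -0.02 over all tested genes. Both RA arrays lay below both Ro arrays for 4 of the 8, Ccl4, Xcl1, Cxcl10 and Ccl1, after scaling, and that held for 18.4% of all tested probe sets. No ligand had both RA arrays above both Ro arrays, against 16% of probe sets. None of the 8 passed limma's adjusted threshold, and neither did any of the 29531 probe sets (0%), although 499 had an unadjusted p under 0.05.

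**Figure D1:**
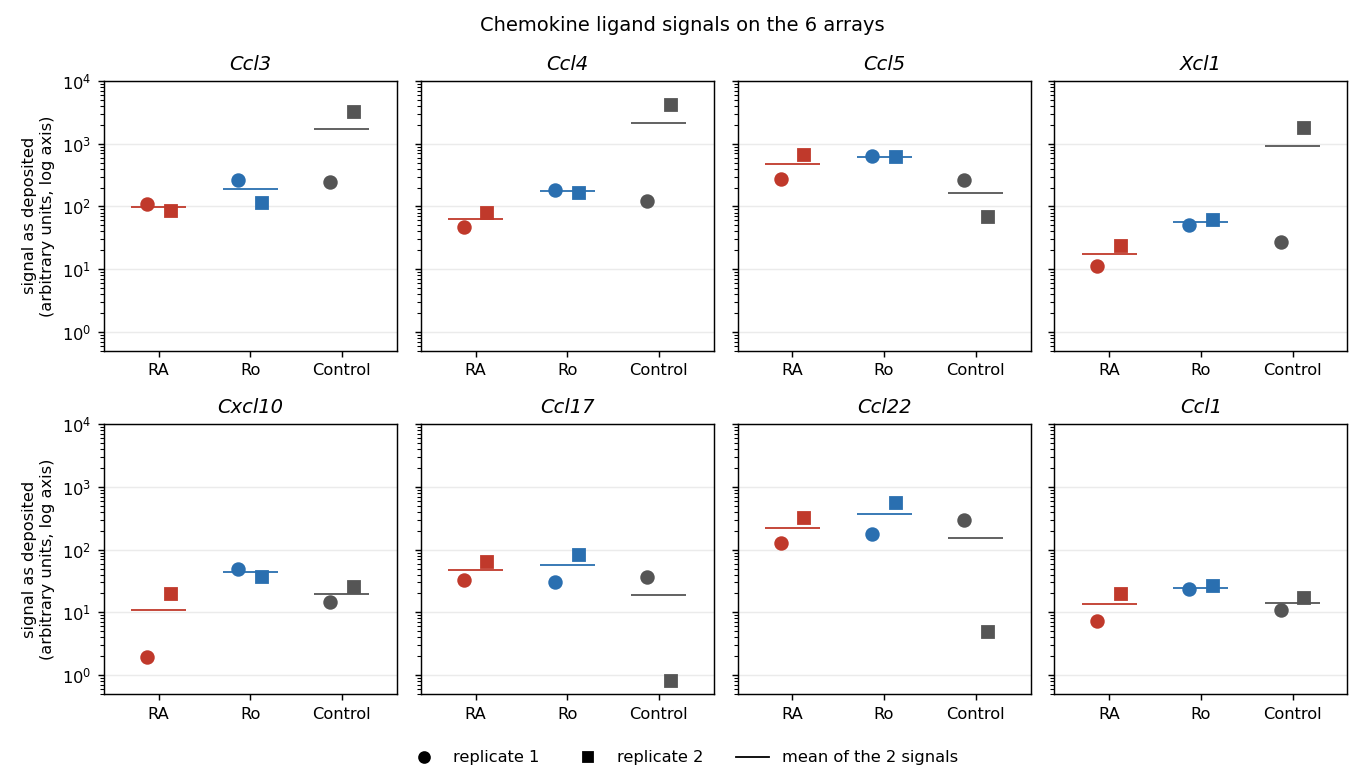
Signals of the 8 ligand genes as deposited (arbitrary units, log axis) on the RA, Ro and Control arrays. Circles are replicate 1, squares replicate 2 and lines the mean of the 2 signals. Control replicate 2 is the highest array for Ccl3, Ccl4 and Xcl1 and the lowest for Ccl5, Ccl17 and Ccl22.

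Ccl3 and Ccl4 are neighbouring genes on chromosome 11, with no coding gene between them, and encode ligands that recruit monocytes and T cells. Ccl4 (probe set 1421578_at) had signals of 46.4 and 80.0 in RA, 185 and 163 in Ro, and 124 and 4126 in Control. The RA arrays were the lowest, Control replicate 1 lay between the RA and the Ro arrays, and Control replicate 2 was far above every other array. Ccl4 averaged 63.2 ± 23.7 in RA, 174 ± 16.0 in Ro and 2125 ± 2830 in Control (SD, n = 2 each).

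Between RA and Ro, Ccl4 differed by -1.25 log2 units (SE 1.59, limma adjusted p = 1.00), and the Ro mean was 2.75 times the RA mean. The SE came from all 6 arrays and so took in the distance between the Control arrays. In a fit of only the 4 RA and Ro arrays the difference was -1.24 (SE 0.31, limma unadjusted p = 0.00566, adjusted p = 0.948). That fit called 10 of 27900 probe sets (0.0358%), and none of the 8 ligands was among them.

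Ccl3 (1419561_at) had 108 and 84.7 in RA, 266 and 114 in Ro, and 248 and 3221 in Control. The lower Ro array was close to the RA arrays, and after scaling the RA and Ro arrays overlapped (116 and 82.8 in RA, 246 and 95.5 in Ro). Ccl3 differed by -0.63 log2 units between RA and Ro (SE 1.28, limma adjusted p = 1.00).

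Ccl5, also called RANTES, binds Ccr1 and Ccr3 and is a late product of T cell activation. Its probe set (1418126_at) had 276 and 663 in RA, 627 and 617 in Ro, and 263 and 68.4 in Control. It averaged 470 ± 274 in RA, 622 ± 7.28 in Ro and 166 ± 137 in Control (SD, n = 2 each). Both RA arrays and both Ro arrays lay above both Control arrays, while RA and Ro overlapped. The RA minus Ro difference was -0.31 log2 units (SE 0.51, limma adjusted p = 1.00).

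Xcl1, lymphotactin, is made by activated T and NK cells and is the ligand of Xcr1 on cross-presenting dendritic cells. Its probe set (1419412_at) had 11.0 and 23.8 in RA, 50.2 and 60.8 in Ro, and 26.6 and 1802 in Control. As deposited, the pattern followed that of Ccl4: lowest on the RA arrays, higher on both Ro arrays, and highest by far on Control replicate 2. After scaling, however, RA replicate 2 (23.2) was not below Control replicate 1 (22.6). Xcl1 averaged 17.4 ± 8.996 in RA and 55.5 ± 7.46 in Ro (SD, n = 2 each), the Ro mean being 3.19 times the RA mean. The difference was -1.38 log2 units in the fit of 6 arrays (SE 1.83, limma adjusted p = 1.00). The 4 RA and Ro arrays alone gave -1.38 with an SE of 0.38 (limma unadjusted p = 0.00911, adjusted p = 0.948).

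Cxcl10, an interferon-induced ligand of Cxcr3, was lower by value in RA than in Ro. Its probe set (1418930_at) had 1.94 and 19.9 in RA, 49.9 and 37.0 in Ro, and 14.6 and 25.3 in Control. Both RA arrays lay below both Ro arrays, but RA replicate 1 was at percentile 17.4 of its array, below the percentile of 40 used as the filter. Only 0.667% of tested probe sets had a larger gap between the RA arrays.

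The Cxcl10 difference between RA and Ro was -1.94 log2 units (SE 0.79, limma unadjusted p = 0.0454, adjusted p = 1.00). It was -0.86 without RA replicate 1 and -2.99 without RA replicate 2, so its size rested on a single dim value. With the pseudocount at the median signal, in place of percentile 20, it was -0.98. Cxcl10 averaged 10.9 ± 12.7 in RA, 43.5 ± 9.11 in Ro and 20.0 ± 7.53 in Control (SD, n = 2 each). The interferon response core and NF-kB matches printed above lie in the promoter of this gene, and 7.13% and 7.25% of promoters hold them within the 250 bases shown.

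Ccl17 and Ccl22 are the ligands of Ccr4. Ccl22 (1417925_at) had 130 and 320.2 in RA, 180 and 554 in Ro, and 299 and 4.86 in Control. Ccl17 (1419413_at) had 32.5 and 63.4 in RA, 30.1 and 81.9 in Ro, and 36.4 and 0.792 in Control. For both genes the RA and Ro arrays overlapped, replicate 2 was the brighter array in RA and in Ro, and Control replicate 2 was near the bottom of its array (percentile 27.4 for Ccl22 and 7.05 for Ccl17). Ccl22 differed by -0.40 log2 units between RA and Ro (SE 1.38), and Ccl17 by 0.08 (SE 0.97), both with a limma adjusted p of 1.00.

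Ccl1, the ligand of Ccr8, was dim on every array. Its probe set (1421688_a_at) had 7.33 and 19.7 in RA, 23.2 and 26.4 in Ro, and 11.1 and 16.9 in Control. Both RA arrays lay below both Ro arrays, by a small margin between RA replicate 2 and Ro replicate 1. RA replicate 1 and Control replicate 1 were below percentile 40 of their arrays, at 35.2 and 37.8. The RA minus Ro difference was -0.67 log2 units (SE 0.58, limma adjusted p = 1.00), and it was -0.15 without RA replicate 1 and -1.17 without RA replicate 2.

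**Figure D2:**
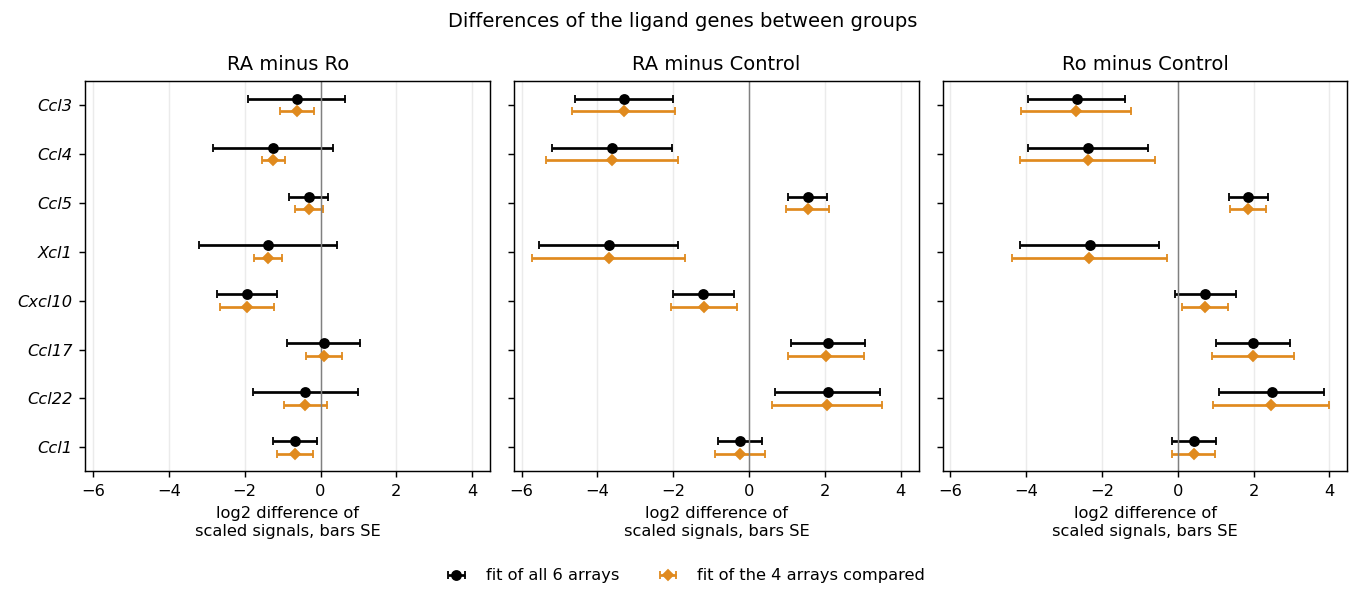
Differences of the 8 ligand genes between groups, in log2 units of scaled signals, with bars of 1 SE. Black circles are the fit of all 6 arrays and orange diamonds the fit of the 4 arrays compared. For Ccl4 and Xcl1 the RA minus Ro differences are alike in both fits (-1.25 and -1.24 for Ccl4), while the SE is 1.59 with the Control arrays and 0.31 without them.

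Against Control, Ccl5 was higher and Ccl3 and Ccl4 were lower on both RA arrays. After scaling, 2 of the 8 ligands, Ccl5 and Ccl17, had both RA signals above those of Control, against 16.2% of all tested probe sets. They lay below for 2 of 8, Ccl3 and Ccl4, against 12.7% of probe sets, and as deposited for Xcl1 too. Ccl5 differed by 1.55 log2 units (SE 0.51, limma unadjusted p = 0.0193, adjusted p = 0.904). Ccl3 differed by -3.30 (SE 1.28, unadjusted p = 0.0372, adjusted p = 0.904), Ccl4 by -3.61 (SE 1.59, adjusted p = 0.904) and Xcl1 by -3.70 (SE 1.83, adjusted p = 0.904). No ligand was called, and no probe set was called over all 6 arrays (0%) or over the 4 arrays alone (0%), although 699 of 29531 had an unadjusted p under 0.05 over the 6.

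Ro set against Control gave 1 ligand whose arrays did not overlap after scaling, Ccl5, with both Ro signals above both Control signals, against 19.3% of all tested probe sets. No ligand lay below, against 16%. In the signals as deposited, Cxcl10 and Ccl1 also had both Ro signals above both Control signals. Ccl5 differed by 1.86 log2 units (SE 0.51, limma unadjusted p = 0.0084, adjusted p = 0.703). No probe set was called in either fit (0% each), and 1647 of 29531 had an unadjusted p under 0.05 over 6 arrays. RA minus Control and Ro minus Control share the Control arrays, so their values are not independent.

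The differences from Control turned on which Control array was used. Control replicate 2 exceeded the highest other array 12.1-fold for Ccl3, 22.3-fold for Ccl4 and 29.6-fold for Xcl1. The lowest of the other 5 arrays exceeded Control replicate 2 3.84-fold for Ccl5. No fold is given for Ccl22 and Ccl17, whose signals on Control replicate 2 were below percentile 40 of that array. After scaling, Control replicate 2 was above the other 5 arrays for 4 ligands (these 3 and, by a small margin, Ccl1), against 38.1% of tested probe sets. It was below them for 3 ligands, against 29% of probe sets.

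The gap between the Control arrays, as replicate 2 minus replicate 1 in log2 units, was 6.66 for Xcl1, 5.78 for Ccl4, 4.44 for Ccl3, -3.03 for Ccl17 and -4.68 for Ccl22. Over all tested probe sets the median absolute gap was 0.66 in Control, and 0.0745% had a larger gap than Xcl1, 0.166% than Ccl4, 0.511% than Ccl3, 0.413% than Ccl22 and 2.13% than Ccl17. The median absolute gap was 0.32 between the RA arrays and 0.35 between the Ro arrays.

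Without Control replicate 1, taking the remaining Control array to be as variable as RA and Ro, 6 of 8 ligands passed limma's threshold in RA minus Control, against 12% of probe sets. Ccl3 differed by -5.52 (adjusted p = 0.00351), Ccl4 by -6.50 (adjusted p = 0.000732) and Xcl1 by -7.03 (adjusted p = 0.000848). Ccl5 differed by 2.12 (adjusted p = 0.0301), Ccl17 by 3.56 (adjusted p = 0.0160) and Ccl22 by 4.40 (adjusted p = 0.0127). The same 6 genes passed in Ro minus Control, against 14.8% of probe sets.

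Without Control replicate 2, none of the 8 passed limma's threshold in either comparison. In RA minus Control, Ccl4 then differed by -0.73, Xcl1 by -0.39, Ccl3 by -1.09, Ccl22 by -0.28 and Ccl17 by 0.55. In Ro minus Control, Ccl4 then differed by 0.51 and Xcl1 by 1.00, opposite in sign to the values over all 6 arrays. Ccl5 kept its sign, at 0.96 for RA minus Control and 1.27 for Ro minus Control.

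**Figure D3:**
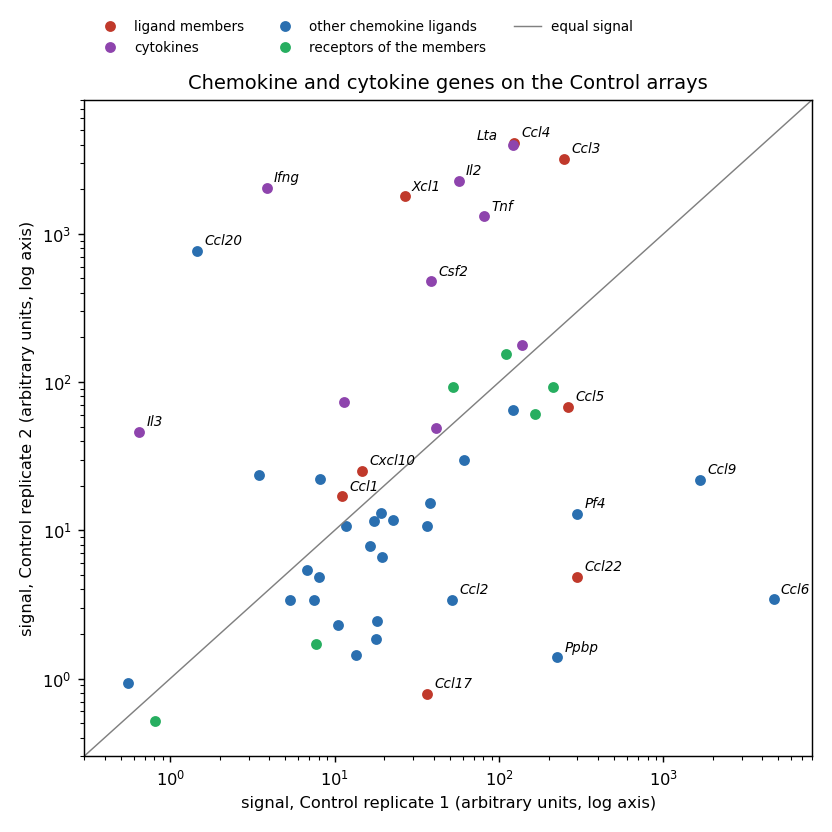
Signals on Control replicate 1 (horizontal) and Control replicate 2 (vertical), both log axes in arbitrary units, for the ligand genes (red), cytokines (purple), other chemokine ligands (blue) and receptors of the 8 ligands (green), with the line of equal signal. Names are given for the 8 ligands and for genes that differed over 10-fold. Xcl1, Ccl4 and Ccl3 lie above the line (26.6 and 1802 for Xcl1), and Ccl22 and Ccl17 lie below it.

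Of the receptors of these ligands, 6 are described here and 4 of them were tested. Ccr8, the receptor of Ccl1, had 26.4 and 21.8 in RA, 152 and 49.5 in Ro, and 52.4 and 93.1 in Control. Both RA arrays were below the other 4, and the RA minus Ro difference was -1.53 log2 units (SE 0.69, limma adjusted p = 1.00). Ccr4, the receptor of Ccl17 and Ccl22, had 53.6 and 21.8 in RA, 41.9 and 2.75 in Ro, and 111 and 156 in Control. Both Control arrays were the highest, RA and Ro overlapped, and Ro minus Control was -3.32 (SE 0.99, limma unadjusted p = 0.0124, adjusted p = 0.703).

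Cxcr3, the receptor of Cxcl10, had 146 and 365 in RA, 489 and 402 in Ro, and 213 and 92.7 in Control. Both Ro arrays were above both Control arrays, by 1.31 log2 units (SE 0.44, limma adjusted p = 0.703), and RA minus Ro was -0.71 (SE 0.44, adjusted p = 1.00). Ccr1, which binds Ccl3 and Ccl5, had 61.4 and 36.1 in RA, 145 and 57.3 in Ro, and 166 and 60.5 in Control, with overlap between RA and Ro. Xcr1, at 1.72 to 9.90, and Ccr3, at 0.257 to 2.32, were below the filter on all arrays. None of the 4 tested receptors was called, 1 was higher and 3 were lower in RA than in Ro by value, and their median difference was -0.70. Of the atypical receptors, which bind chemokines without leading cells along them, Ackr1 had 25.3 and 18.3 in RA, 19.8 and 19.8 in Ro, and 15.7 and 11.6 in Control, and Ackr2 was below the filter at 6.39 to 12.4.

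Transcription factors known to act on these genes were lower in RA than in Ro for 15 of 17 by value, with a median difference of -0.34 log2 units. For 10 of the 17 both RA arrays lay below both Ro arrays after scaling, against 18.4% of tested probe sets, and none passed limma's threshold. Tbx21, the Th1 factor T-bet, had 36.8 and 185 in RA, 223 and 299 in Ro, and 110 and 143 in Control. Its RA arrays were below both Ro arrays, with RA replicate 1 lowest of all, and the difference was -1.38 (SE 0.70, limma adjusted p = 1.00).

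Runx3, which acts with T-bet, had 336 and 409 in RA, 913 and 972 in Ro, and 518 and 814 in Control. Both RA arrays were below every other array, by -1.12 log2 units from Ro (SE 0.46, limma unadjusted p = 0.0477, adjusted p = 1.00). Against Control, the factors divided into 8 higher and 9 lower in RA, and 15 higher and 2 lower in Ro. Among the interferon receptors, Ifngr2, a chain of the interferon gamma receptor, was 0.78 higher in RA than in Ro (SE 0.28, adjusted p = 1.00) and Ifngr1 0.19 higher (SE 0.34, adjusted p = 1.00).

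Cytokines that activated T cells release with these chemokines divided evenly between RA and Ro, 4 higher and 4 lower of 8 tested, with a median difference of -0.08 log2 units. All 8 were lower by value in both RA and Ro than in Control, by medians of -2.31 and -2.02, and all 8 were highest on Control replicate 2 after scaling, against 38.1% of tested probe sets. None was called. Ifng, encoding interferon gamma, which induces Cxcl10, had 3.15 and 25.5 in RA, 17.6 and 85.5 in Ro, and 3.86 and 2054 in Control. RA and Ro overlapped, with a difference of -1.51 (SE 2.53, limma adjusted p = 1.00). Tnfsf11, encoding RANKL, had 151 and 112 in RA, 44.8 and 36.7 in Ro, and 138 and 178 in Control. Both RA arrays were above both Ro arrays, by 1.82 (SE 0.46, limma unadjusted p = 0.00534, adjusted p = 1.00), the opposite direction to Ccl4, Xcl1 and Cxcl10.

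**Figure D4:**
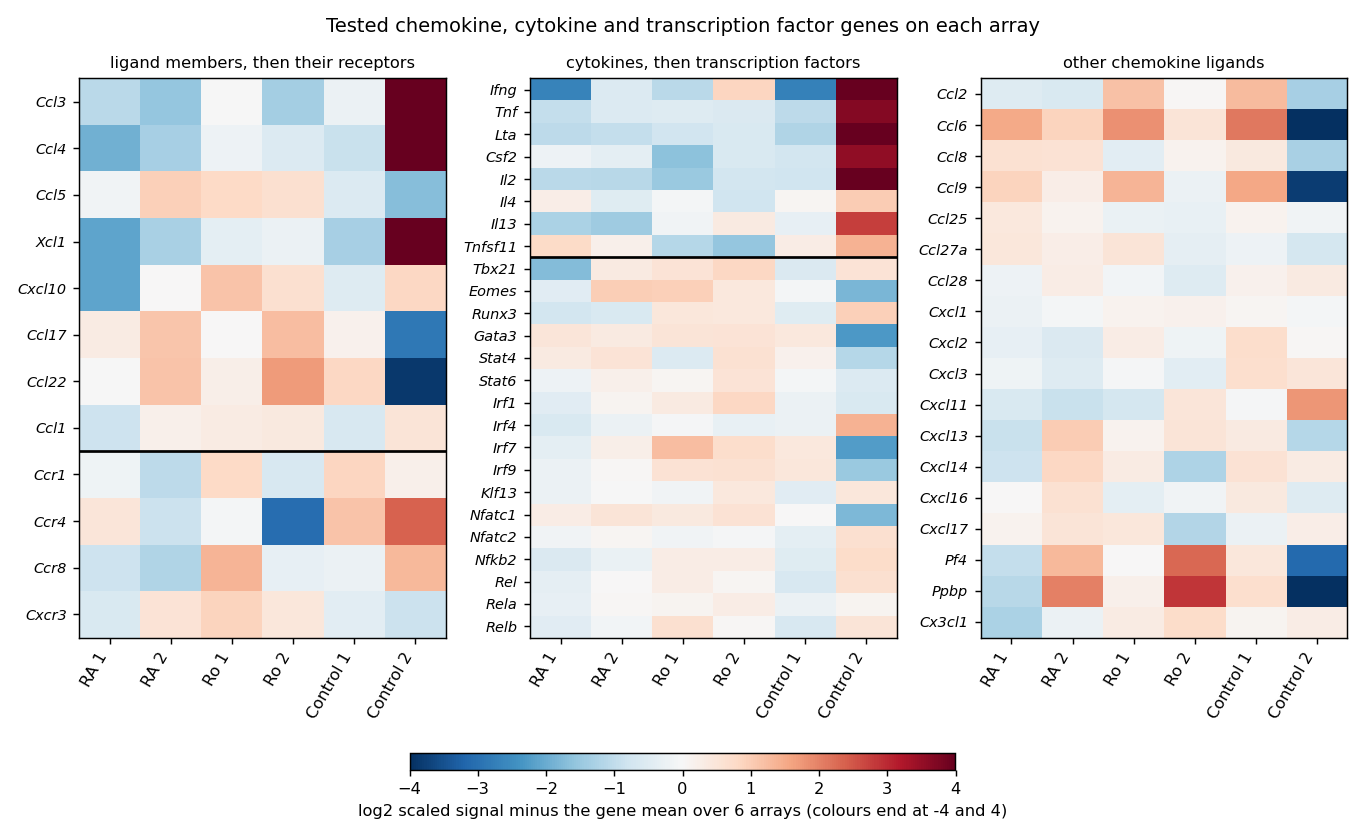
Log2 scaled signal of each tested gene on each array minus its mean over the 6 arrays, with colours ending at -4 and 4. The left panel holds the 8 ligands above the line and their receptors below it, the middle panel cytokines above the line and transcription factors below it, and the right panel other chemokine ligands. Control replicate 2 differs from the other 5 columns in every panel, with all 8 cytokines highest there.

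Of 28 other chemokine ligands, 27 had a probe set and 18 were tested. They divided 9 higher and 9 lower in RA than in Ro, with a median of -0.06 log2 units, and none was called. Cx3cl1, the neighbour of Ccl17 and Ccl22 and a ligand for monocytes and NK cells, had 3.48 and 11.1 in RA, 19.1 and 28.9 in Ro, and 17.3 and 11.6 in Control. Both RA arrays were the lowest, by -1.30 from Ro (SE 0.52, limma unadjusted p = 0.0418, adjusted p = 1.00). Ccl2, a monocyte attractant, had 9.98 and 10.2 in RA, 44.7 and 20.5 in Ro, and 52.0 and 3.41 in Control. RA did not overlap Ro, differing by -1.16 (SE 0.86, limma adjusted p = 1.00), while the Control arrays lay on either side.

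Genes whose pattern was most like that of each ligand were found by Pearson correlation of log2 values over the 6 arrays among 5260 genes with an SD of at least 0.5. These correlations are descriptions, all share the same 6 arrays, and most rest on Control replicate 2. Ccl4 was closest to Egr2 (0.999) and Acvr2a (0.999), Xcl1 to Bcl2l1 (0.998) and Ccl4 (0.996), and Ccl3 to Ltb4r1 (0.997) and Lif (0.994). Ccl17 was closest to Rnf122 (0.999) and Oxr1 (0.998), Ccl22 to Il6st (0.998) and Wfikkn2 (0.997), and Ccl5 to Casp2 (0.986) and Peak1 (0.982). Cxcl10 was closest to Pak6 (0.978) and Tbx21 (0.956), and Ccl1 to Alpi (0.973) and 4930470P17Rik (0.966).

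Of the 5260 genes, 310 correlated above 0.95 with Xcl1 and 299 with Ccl4, while 3 did with Cxcl10 and 8 with Ccl1. Among the 8 ligands, Ccl4 and Xcl1 correlated at 0.996 over 6 arrays and 0.940 over the 5 without Control replicate 2. Ccl3 and Ccl4, although adjacent in the genome, correlated at 0.964 over 6 arrays and 0.496 over those 5. Ccl17 and Ccl22 correlated at 0.981 and 0.825, and Cxcl10 and Ccl1 at 0.911 and 0.902.

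Markers of mast cells and basophils were lower on both RA arrays than on both Ro arrays. Their summed signal over 6 genes was 1478 and 1290 in RA, 5517 and 3636 in Ro, and 3649 and 154 in Control. All 6 had both RA arrays below both Ro arrays after scaling, against 18.4% of tested probe sets, with a median difference of -1.19 log2 units. The mast cell protease Cma1 passed when Control was left out (limma adjusted p = 0.0267), against 0.0358% of probe sets. On Control replicate 2, where Ccl3, Ccl4 and Xcl1 were highest, this sum was lowest. After scaling, 5 of the 6 markers were lowest on that array, against 29% of tested probe sets, but Kit was highest there. The part of mast cells and basophils in the lower Ccl4, Xcl1, Cxcl10 and Ccl1 values was not tested.

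The 4 NK cell markers summed to 307 and 565 in RA, 1141 and 754 in Ro, and 370 and 2092 in Control, with Control replicate 2 and then the Ro arrays highest, as for Xcl1. Klrd1, which T cells can also carry, made up most of the sum, while the defining NK markers Ncr1 (7.38 to 11.9) and Klra8 (0.176 to 4.76) were below the filter on all arrays. After scaling, Klrd1 was highest on Control replicate 2, whereas Eomes, the other tested marker of the list, was lowest there. The 2 CD8 markers summed to 58.9 and 93.1 in RA, 139 and 187 in Ro, and 135 and 321 in Control. The 10 macrophage and dendritic cell markers summed to 499 and 476 in RA, 1039 and 376 in Ro, and 1715 and 149 in Control, with the lowest sum on Control replicate 2, as for Ccl17 and Ccl22. After scaling, 4 of the 9 tested markers of that list were lowest on that array, against 29% of tested probe sets. Itgax, a dendritic cell integrin, was highest there. As deposited, the 7 T cell markers summed to 22161 to 26375 on 5 arrays and to 14950 on Control replicate 2. That array also had the lowest median signal (16.2, against up to 23.7), so these unscaled sums overstate the gap. After scaling, 5 of the 7 T cell markers were lowest there and 2 highest, against 29% and 38.1% of tested probe sets. The 4 B cell markers summed to 51.4 to 109. No marker was at exactly 0, and the part of these cells in the ligand values was not tested.

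**Figure D5:**
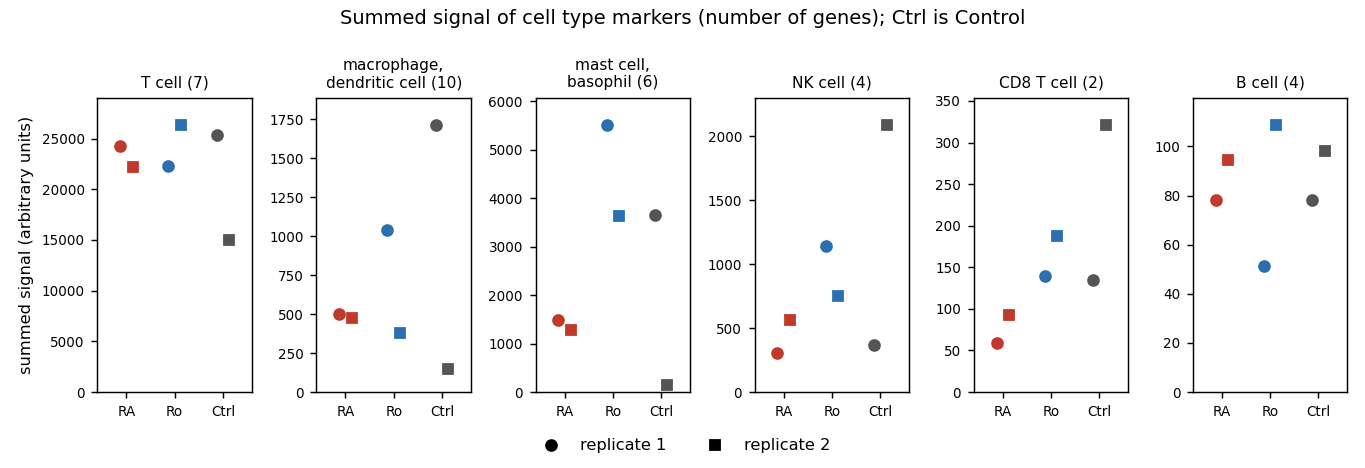
Summed signals as deposited (arbitrary units, axes from 0) of markers of 6 cell types, with the number of genes in each sum, on the RA, Ro and Control arrays. Circles are replicate 1 and squares replicate 2. Mast cell and basophil markers are lower on both RA arrays (1478 and 1290) than on both Ro arrays (5517 and 3636).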

How the data were processed

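RNA from mouse CD4+ T cell cultures was hybridised to 6 Affymetrix arrays, 2 each for RA, Ro and Control. The intensities deposited by the authors are MAS5 signals, as the submitters' processing notes record without a version. From these, 64 control probe sets were left out, arrays were scaled to a common median, and probe sets above percentile 40 of their array on at least 2 arrays were kept. A pseudocount of 2.99 (percentile 20) was added and log2 taken. The test was limma 3.58.1 (R 4.3.3; lmFit, eBayes with an intensity trend, 6 arrays and 3 groups, no covariate), adjusted by Benjamini-Hochberg over 29531 probe sets and tested on simulated data. The simulated data gave every gene the same spread, taken from the RA and Ro arrays. They did not cover the wider gap between the Control arrays. Probe sets were named by GEO's platform annotation: 34945 had 1 symbol, 932 several and 9160 none.

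The 8 members and all lists were chosen with earlier results of these data known. Named were all members, all measured receptors, up to 2 genes of each other list by RA minus Ro difference, and the 2 genes most correlated with each member; others were named after their values were seen. Promoters came from RefSeq (GRCm38.p6). Alternatives covered the pseudocount, scaling, filter, trend, replicate block, groups fitted and each array left out.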

Additional observations from a re-analysis of the deposited data

How the results depend on the processing

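No probe set was called in the 3 comparisons with another pseudocount, the signals as deposited, quantile normalization, no filter, a filter at percentile 60, no intensity trend or a replicate block (0 calls in each). Fitting only the 2 groups compared called 10 probe sets in RA minus Ro and 0 in the others. Leaving out 1 array gave 0 to 10 calls in RA minus Ro (10 whichever Control array was left out), 0 to 3478 in RA minus Control and 0 to 4294 in Ro minus Control, both highest without Control replicate 1, where the 1 Control array left is taken to be as variable as RA and Ro. The replicate numbers were not taken as pairs: deviations of same-numbered arrays correlated at 0.25 between RA and Ro, 0.00 between RA and Control and -0.03 between Ro and Control.

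Of 354 single-gene values under 15 alternatives, 328 kept direction and side of the threshold, 12 newly passed it and 14 changed sign. With the pseudocount at the median, RA minus Ro was -0.98 for Cxcl10, -0.89 for Xcl1 and -0.34 for Ccl1, RA minus Control was 1.04 for Ccl17, -0.54 for Cxcl10 and -0.13 for Ccl1, and Ro minus Control was 1.00 for Ccl17, 0.44 for Cxcl10 and 0.21 for Ccl1, each more than 1.5 times smaller. Ccl17 RA minus Ro was -0.13 on signals as deposited and -0.023 without the filter. Leaving out 1 array, RA minus Ro ranged from -0.52 to 0.70 for Ccl17, -0.86 to 0.25 for Ccl5, -1.13 to 0.34 for Ccl22 and -1.29 to 0.049 for Ccl3. RA minus Control ranged from -0.81 to 0.33 for Ccl1 and -0.28 to 4.40 for Ccl22. Ro minus Control ranged from -0.15 to 1.00 for Ccl1, -5.26 to 0.51 for Ccl4 and -5.66 to 1.00 for Xcl1. The cause was not tested. As deposited, the median of all tested probe sets differed by -0.21 in RA minus Ro, 0.09 in RA minus Control and 0.29 in Ro minus Control, which scaling set near 0. Averaging probe sets per gene changes nothing here, since each ligand has 1. Dim values (Cxcl10 on RA replicate 1, Ccl17 and Ccl22 on Control replicate 2, Ccl1) are least certain.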

Other observations

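Some chemokine genes outside the 8 ligands also differed on Control replicate 2, and those described here were chosen after their values were seen. Of the 18 other chemokine ligands tested, 2 were highest and 9 lowest on that array after scaling, against 38.1% and 29% of tested probe sets. Ccl20, which attracts Ccr6-bearing cells and is made by Th17 cells, had 770.6 on Control replicate 2 and 0.906 to 2.55 on the other 5 arrays. Being bright on 1 array only, it did not pass the filter and was not tested. Ccl6 and Ccl9, which lie between Ccl5 and Ccl3 on chromosome 11 and are known from myeloid cells, went the other way. Ccl6 had 2432 and 1756 in RA, 3551 and 1567 in Ro, and 4678 and 3.42 in Control. Ccl9 had 822 and 592 in RA, 1334 and 487 in Ro, and 1672 and 21.9 in Control. Neighbours of one gene cluster were thus highest (Ccl3, Ccl4) and lowest (Ccl5, Ccl6, Ccl9) on the same array.

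The platelet chemokines Pf4 and Ppbp, like Ccl22, were brighter on replicate 2 of RA and of Ro and dim on Control replicate 2. Pf4 had 86.9 and 459 in RA, 200 and 1080 in Ro, and 298 and 12.99 in Control. Ppbp had 49.9 and 501 in RA, 151 and 1065 in Ro, and 225 and 1.39 in Control. Of the other Cxcr3 ligands, Cxcl9 was below the filter at 0.958 to 10.9, and Cxcl11 had 3.40 and 2.61 in RA, 3.65 and 13.5 in Ro, and 8.19 and 22.1 in Control.

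The interferon response factors Irf1 and Irf7, picked from the 17 transcription factors above, had both RA arrays below both Ro arrays, as did 18.4% of tested probe sets. Irf1 had 1529 and 2460 in RA, 3120 and 4718 in Ro, and 2266 and 1011 in Control. Irf7 had 412 and 690 in RA, 1467 and 1132 in Ro, and 922 and 84.3 in Control. Their RA minus Ro differences were -0.76 (SE 0.35) and -1.05 (SE 0.79), neither past limma's threshold. Also on that list, Irf4 and Irf9 differed by -0.26 (SE 0.53) and -0.69 (SE 0.59), while the receptor chains Ifngr1 and Ifngr2 were higher in RA by value.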
